A study of Mus musculus with 12 samples.

Results

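The 10 genes described here mark endothelial cells and were followed across tissue and genotype in mouse colon and bladder: *Pecam1*, *Cdh5*, *Kdr*, *Flt1*, *Tek*, *Tie1*, *Vwf*, *Emcn*, *Plvap*, and *Erg*. The genes were chosen by name as markers of the cells that line blood vessels, and each was found as a single gene ID among the 54532 genes of the 12 libraries. Colon and bladder were each represented by 3 Ctrl and 3 Y/T KO libraries, 1 mouse per library, and 3 of the 9 mice (788, 783, and 780) gave both tissues. In the Y/T KO mice, floxed *Yap1* and *Wwtr1* (the genes for YAP and TAZ) were deleted by a tamoxifen-inducible CreERT2 recombinase under the smooth muscle myosin heavy chain (*Myh11*) promoter. The Ctrl mice carried the floxed alleles without Cre. All mice were males aged 5 to 7 weeks, every one of them, Ctrl included, received tamoxifen (1 mg per mouse per day, 5 injections), and tissue was taken on day 7 after the first injection. By its promoter, the Cre is taken to be active in smooth muscle, including the muscle of vessel walls, and not in endothelial cells. Its activity by cell type was not measured in these libraries. The genotype comparison asks whether endothelial transcripts changed in tissue whose muscle was targeted for loss of YAP and TAZ.

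Endothelial cells form the inner layer of arteries, capillaries, and veins. They adhere to each other through VE-cadherin and PECAM-1, receive vascular endothelial growth factor (VEGF) through receptor tyrosine kinases, and receive angiopoietins, made in part by surrounding mural cells, through TIE2. Fenestrated capillaries, which are common in the intestinal mucosa, carry a diaphragm across each pore that is built from the protein encoded by *Plvap*.

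Aligned sequence amounted to 2.80 to 3.94 gigabases per library. *Yap1* was 45.8 to 54.9 TPM in Ctrl colon and 41.3 to 47.0 in Y/T KO colon, and 98.6 to 109.8 in Ctrl bladder against 69.4 to 72.1 in Y/T KO bladder. *Wwtr1* was 16.8 to 21.5 TPM in Ctrl colon and 17.9 to 22.7 in Y/T KO colon, and 32.5 to 61.6 against 48.3 to 60.8 in the bladder. Neither gene passed the test in either tissue (limma, smallest adjusted p = 0.0625 for *Yap1* in the bladder, log2 difference −0.54 ± 0.076 SE), and *Wwtr1* was not lower in either tissue. TPM over a whole gene need not show the loss of a floxed exon, and most cell types of the tissue keep both genes, so these values are a weak check of the labels. The tissue labels were borne out by their epithelia: *Upk1a*, a uroplakin of the bladder epithelium, was 1376 to 1794 TPM in bladder and 8.88 to 17.9 in colon, whereas *Epcam*, an epithelial adhesion gene, was 1476 to 1822 TPM in colon and 46.7 to 108.1 in bladder.

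Of the 10 endothelial genes, 9 were 1.99-fold to 2.61-fold higher in bladder than in colon over all 12 libraries (1.79-fold to 2.89-fold within Ctrl and 1.99-fold to 3.09-fold within Y/T KO mice), while the *Plvap* levels of the tissues overlapped. No member passed the test between Y/T KO and Ctrl in either tissue. TPM, each transcript's share of all transcripts in a library, is scaled to transcript length and to the library total, and in whole tissue more endothelial cells and more transcript per endothelial cell cannot be told apart.

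Within colon, *Plvap* had the highest mean of the 10 genes, at 46.1 ± 5.72 TPM (SD, n = 3) in the Ctrl libraries and 51.4 ± 6.87 in those of Y/T KO. *Pecam1* came next, at 37.3 ± 6.10 and 35.1 ± 6.52 TPM. In Ctrl colon the libraries of these genes overlapped, and in Y/T KO colon they did not. *Emcn*, *Cdh5*, *Kdr*, *Vwf*, *Tek*, *Tie1*, and *Flt1* followed in Ctrl colon with means from 13.1 down to 5.72 TPM, each overlapping its neighbor, and *Erg* was lowest at 3.88 TPM. Bladder had another order. *Pecam1* led at 83.5 ± 5.99 TPM for Ctrl and 98.4 ± 2.14 TPM for Y/T KO, with no overlap with the gene below it. *Plvap* came next in Ctrl bladder (48.5 ± 2.87 TPM), and in Y/T KO bladder (42.4 ± 6.61 TPM) it stood between *Emcn* above and *Cdh5* below and overlapped both. *Erg* was lowest in all 4 groups. Values per library in the text are TPM as deposited, and differences are on the log2 scale of TPM divided by a size factor per library, plus 0.1.

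**Figure D1:**
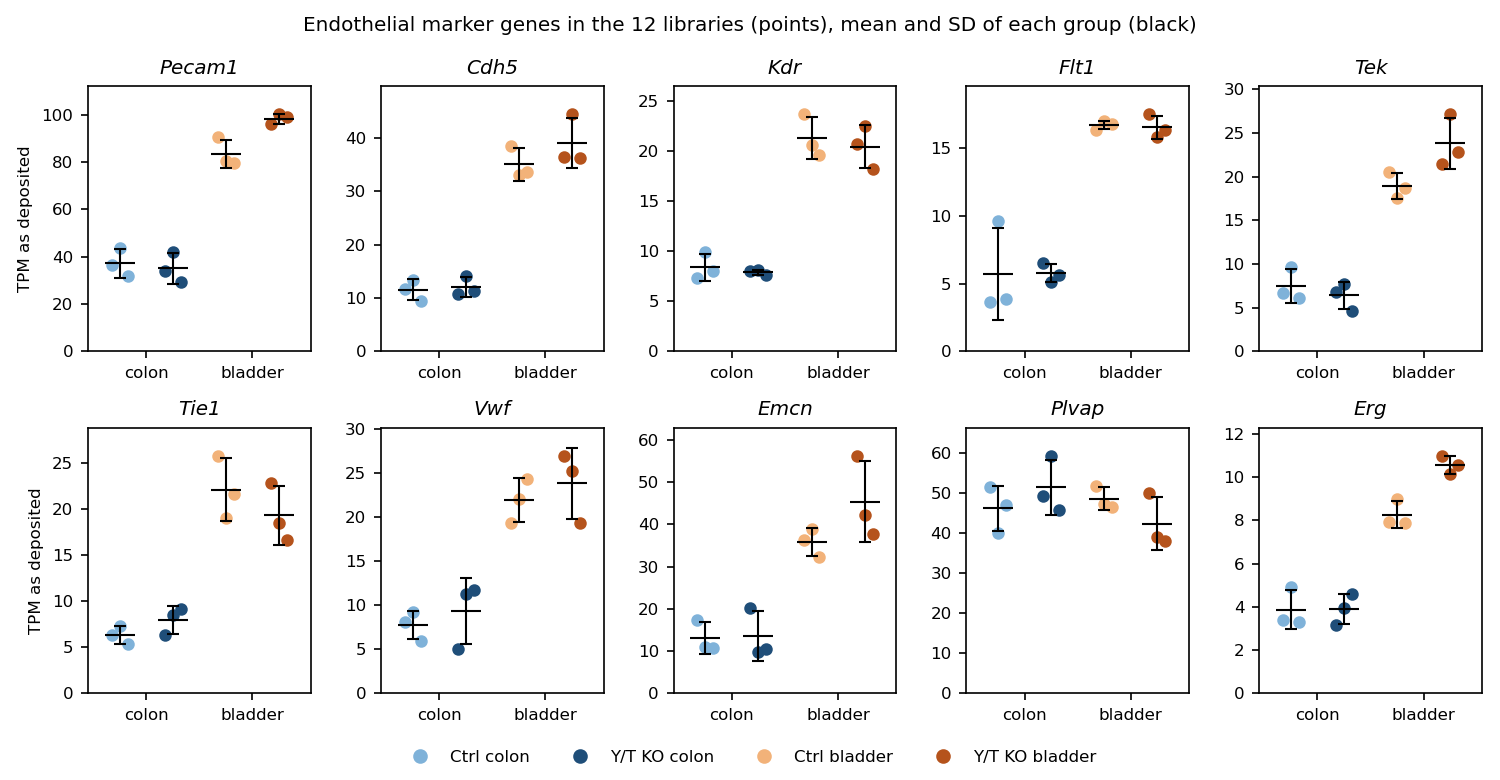
TPM as deposited of the 10 endothelial marker genes in each of the 12 libraries (points, 3 per group), with the mean and SD of each group in black; each panel has its own axis from 0. In every panel except that of *Plvap*, all 6 bladder libraries lie above all 6 colon libraries, and no gene passed the test between Ctrl and Y/T KO within a tissue.

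*Pecam1* encodes PECAM-1 (CD31), an adhesion protein at endothelial cell borders, and lies on chromosome 11 (GRCm38, 106654217-106750628, minus strand). Colon TPM was 36.4, 43.8, and 31.7 in Ctrl mice 788, 786, and 787, and 34.2, 42.1, and 29.2 in Y/T KO mice 759, 783, and 780. Bladder TPM was 90.4, 80.4, and 79.8 in Ctrl mice 784, 785, and 788, and 96.0, 100.2, and 99.0 in Y/T KO mice 782, 783, and 780. The lowest bladder library was well above the highest colon library, and the fitted difference was 1.07 ± 0.10 (log2, SE), a 2.10-fold higher level in bladder (adjusted p = 2.4e-06, limma). *Cdh5*, which encodes VE-cadherin of the adherens junction, had the largest fitted difference between tissues, although within the error of those of *Emcn* and *Tek*. Its colon TPM was 11.7, 13.4, and 9.48 in Ctrl and 10.8, 14.2, and 11.3 in Y/T KO, the mice in the same order, and its bladder TPM was 38.6, 33.0, and 33.6 in Ctrl and 36.5, 44.4, and 36.3 in Y/T KO. Tissues did not overlap, and the difference was 1.38 ± 0.11 (2.61-fold, adjusted p = 7.83e-07).

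Among the VEGF receptors, *Kdr* encodes VEGFR2, the main signaling receptor for VEGF-A, and *Flt1* encodes VEGFR1, which binds the same ligand and is also made as a soluble form. *Kdr* was 7.30, 9.90, and 8.03 TPM in Ctrl colon, 7.97, 8.09, and 7.63 in Y/T KO colon, 23.6, 20.6, and 19.6 in Ctrl bladder, and 20.7, 22.4, and 18.2 in Y/T KO bladder. It was 2.11-fold higher in bladder (log2 1.08 ± 0.10). *Flt1* was less even in colon. Ctrl mouse 786 had 9.60 TPM against 3.67 and 3.88 in Ctrl mice 788 and 787, a coefficient of variation of 58.8%, and the Y/T KO colon libraries held 6.49, 5.14, and 5.67 TPM between them. *Flt1* in bladder was 16.4, 16.99, and 16.7 TPM in Ctrl and 17.5, 15.8, and 16.3 in Y/T KO, so that even the high colon library stayed under all bladder libraries (2.51-fold, log2 1.33 ± 0.19). The ratio of *Kdr* to *Flt1* TPM had medians of 1.99 in Ctrl colon, 1.35 in Y/T KO colon, 1.21 in Ctrl bladder, and 1.18 in Y/T KO bladder. Ctrl colon ran from 1.03 to 2.07 and overlapped the other groups.

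*Tek* encodes TIE2, the receptor for angiopoietins, and *Tie1* its partner receptor. *Tek* was 6.71, 9.72, and 6.13 TPM in Ctrl colon, 6.85, 7.73, and 4.65 in Y/T KO colon, 20.5, 17.5, and 18.7 in Ctrl bladder, and 21.5, 27.1, and 22.8 in Y/T KO bladder. *Tie1* was 6.35, 7.33, and 5.32 TPM in Ctrl colon, 6.29, 8.54, and 9.13 in Y/T KO colon, 25.7, 19.0, and 21.6 in Ctrl bladder, and 22.9, 18.5, and 16.7 in Y/T KO bladder. Both were higher in every bladder library than in any colon library (*Tek* 2.56-fold, log2 1.36 ± 0.15). For *Tie1* the difference was 2.40-fold (log2 1.26 ± 0.13). The genotype differences of the pair pointed opposite ways in each tissue: *Tek* −0.19 and *Tie1* 0.36 in colon, *Tek* 0.33 and *Tie1* −0.20 in bladder. None of these 4 values passed the test, nor did the difference of the genotype effect between tissues (interaction term, colon minus bladder, −0.54 ± 0.30 for *Tek*, adjusted p = 0.498, and 0.53 ± 0.27 for *Tie1*, adjusted p = 0.459).

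*Vwf* encodes von Willebrand factor, stored in endothelial granules and in platelets. It was 8.08, 9.21, and 5.99 TPM in Ctrl colon, 5.01, 11.3, and 11.7 in Y/T KO colon, 19.4, 22.0, and 24.3 in Ctrl bladder, and 26.9, 25.2, and 19.3 in Y/T KO bladder, 2.29-fold higher in bladder (log2 1.20 ± 0.20). Y/T KO mouse 759 had the lowest colon value, below all other libraries. *Emcn* encodes endomucin, a surface sialomucin of capillaries and veins. It was 17.4, 11.1, and 10.7 TPM in Ctrl colon, 20.3, 9.90, and 10.6 in Y/T KO colon, 36.4, 38.9, and 32.2 in Ctrl bladder, and 56.1, 42.2, and 37.7 in Y/T KO bladder (2.58-fold, log2 1.37 ± 0.20). In colon, a single library of each genotype (mice 788 and 759) was high in TPM. Coverage of *Emcn*, not scaled to library depth, did not set mouse 788 apart (8.88, against 9.72 in Ctrl mouse 786). The libraries of mice 788 and 759 are different from the one that was high for *Flt1*.

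*Erg* encodes an ETS-family transcription factor that maintains endothelial identity. It was the least abundant member, at 3.41, 4.94, and 3.28 TPM in Ctrl colon, 3.17, 3.97, and 4.58 in Y/T KO colon, 7.91, 8.98, and 7.89 in Ctrl bladder, and 10.9, 10.2, and 10.6 in Y/T KO bladder. Bladder exceeded colon 1.99-fold (log2 1.00 ± 0.13, adjusted p = 3.26e-05).

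In the comparison of bladder with colon over all 12 libraries, 9 of the 10 members were called higher in bladder at an adjusted p under 0.05, where 31.1% of the 19773 genes tested were called higher in bladder. All 6 bladder libraries were above all 6 colon libraries for the same 9 members, which held for 20.4% of all genes in that direction. The median log2 difference of the 10 members was 1.23, and that of all genes tested was −0.017. Within Ctrl mice alone, 9 members were called higher in bladder (25.3% of all genes), with *Tie1* the largest (log2 1.53 ± 0.19), and within Y/T KO mice alone 9 were called higher again (25.6% of all genes), with *Tek* the largest (1.63 ± 0.21). In the 3 mice that gave both tissues, the bladder level of each of these 9 genes exceeded that in the colon of the same mouse, from 1.35-fold (*Vwf*, mouse 780) to 3.99-fold (*Tek*, mouse 780). Marker sums of some other cell types differed between the tissues as well. The summed TPM of 10 smooth muscle genes was 4974 to 8324 in colon and 17000 to 46190 in bladder. That of 10 mural genes was 199.5 to 229.7 and 661.2 to 851.6, and that of 4 adipocyte genes 6.96 to 34.9 and 77.6 to 451.1. For 5 erythroid genes the sums were 37.1 to 139.1 and 285.3 to 501.3, and all 5 were called higher in bladder (median log2 difference 2.25). For 3 mesothelium genes they were 26.7 to 58.1 and 141.9 to 393.6. The sum of 8 leukocyte genes overlapped between tissues (111.9 to 243.6 and 216.2 to 479.9). Of these 8, 4 were called higher in bladder and 2 lower. The part of tissue composition in the members' difference was not tested.

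**Figure D2:**
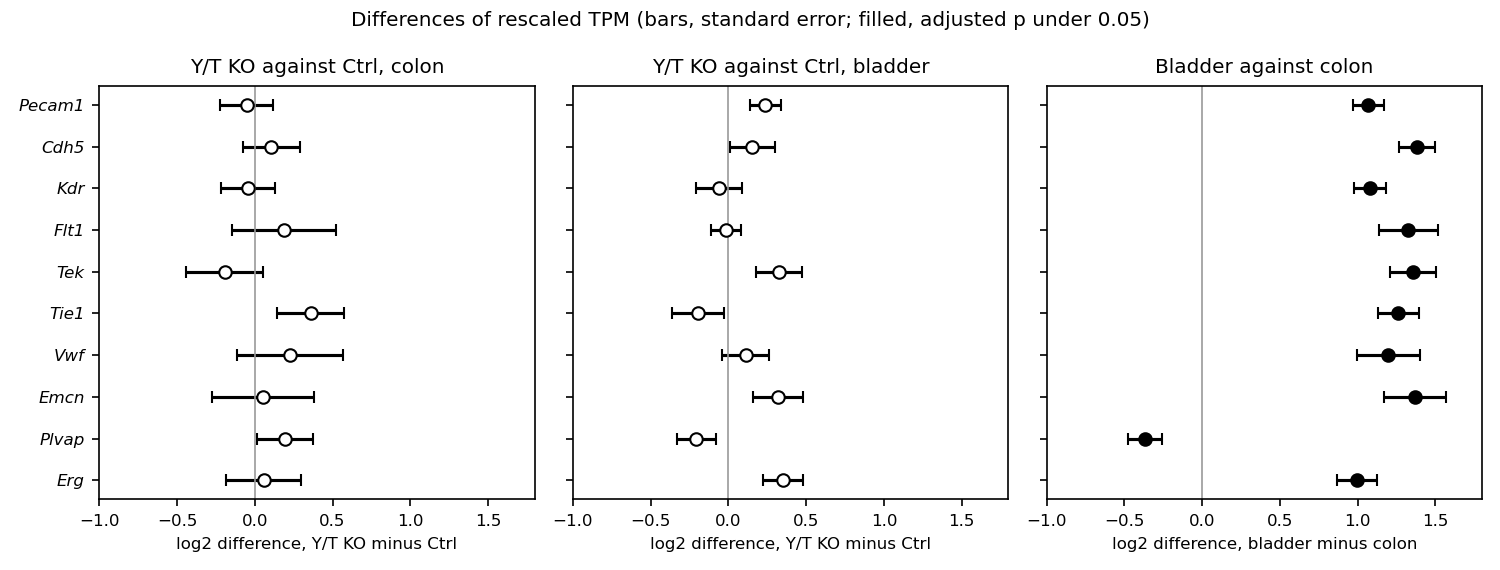
Log2 difference of each member with its standard error in 3 comparisons: Y/T KO minus Ctrl in colon, Y/T KO minus Ctrl in bladder, and bladder minus colon; filled points passed an adjusted p of 0.05. The other members sit between 1.00 and 1.38 in the tissue panel with *Plvap* at −0.37, whereas the open points of the genotype panels lie between −0.21 and 0.36.

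*Plvap*, on chromosome 8 (GRCm38, 71497765-71511752, minus strand), went the other way. Colon TPM was 51.4, 40.0, and 46.9 in Ctrl and 49.3, 59.1, and 45.9 in Y/T KO. Bladder TPM was 51.8, 47.3, and 46.4 in Ctrl and 49.96, 39.1, and 38.01 in Y/T KO. The tissues overlapped in deposited and in rescaled TPM, and in the fit on rescaled TPM *Plvap* was called lower in bladder (log2 −0.37 ± 0.11, 0.774-fold, adjusted p = 0.0125), where 31.2% of all genes were called lower. This call depended on the scaling: TPM as deposited lay 0.26 higher in bladder for the median gene than rescaled TPM did, and without rescaling the *Plvap* difference was −0.10 (adjusted p = 0.417). Within Ctrl mice the difference was −0.18 ± 0.16 (adjusted p = 0.367), and within Y/T KO mice −0.56 ± 0.16 (adjusted p = 0.0112), a comparison in which 25.8% of all genes were called lower. The interaction was 0.38 ± 0.22 (adjusted p = 0.524), so a difference between genotypes in this contrast was not shown. In the 3 mice with both tissues, bladder *Plvap* was 0.575-fold to 0.715-fold that of the colon on the rescaled scale.

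The relation of *Plvap* to the other members within a library does not depend on how libraries are scaled. *Plvap* TPM was 0.915 to 1.57 times that of *Pecam1* in colon (median 1.43) and 0.384 to 0.589 times in bladder (median 0.547). Relative to *Cdh5* it was 2.99 to 4.95 in colon and 0.879 to 1.44 in bladder. For each of the 9 other members the ratio was higher in all 6 colon libraries than in all 6 bladder libraries, by 2.61-fold (*Erg*) to 3.38-fold (*Cdh5*) of the geometric means. The exact two-sided permutation test gave p = 0.00216 for each of the 9 ratios, the smallest that 6 libraries against 6 allow and 0.00216 also after Benjamini-Hochberg adjustment over the 9. These ratios were chosen after the levels were seen, they share the *Plvap* values, and 3 mice are in both groups, so the p-values count the libraries as more independent than they are. The 9 other members were already higher in every bladder library. Any gene of like level in both tissues could therefore separate from them in the same way. How many other genes do so was not counted, so the separation is not shown to be particular to *Plvap*. *Plvap* overlaps the gene *Gtpbp3* on the opposite strand, with no shared exon. *Gtpbp3* reached at most 14.6 TPM in any library.

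**Figure D3:**
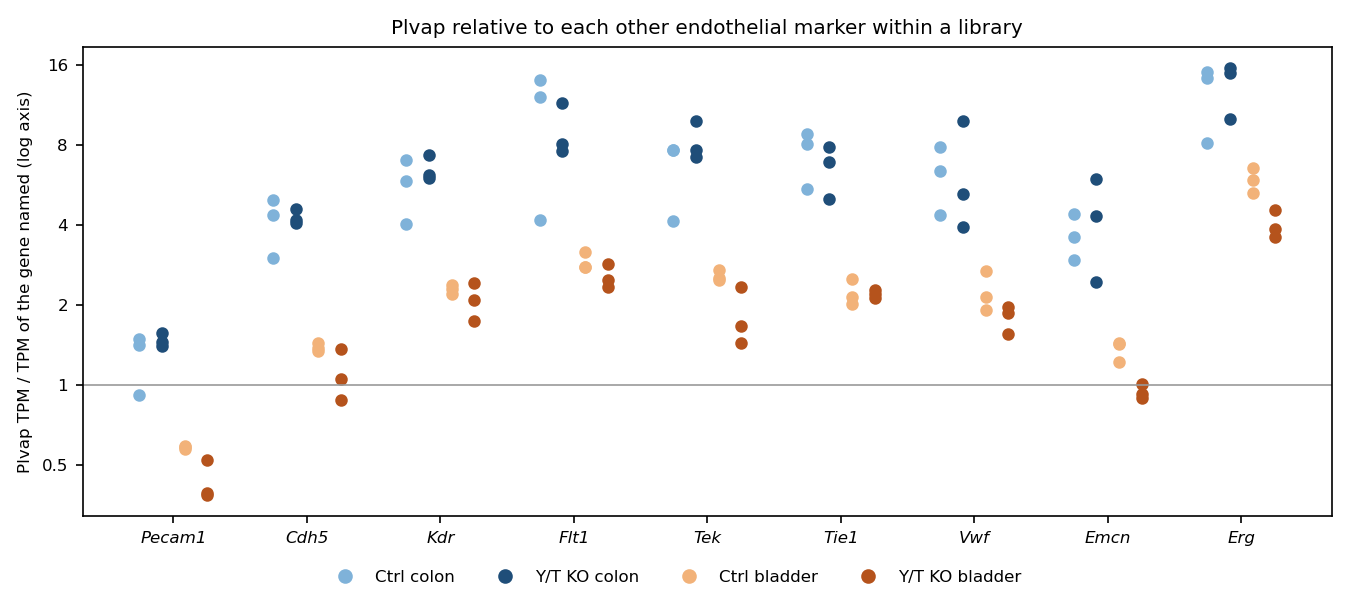
*Plvap* TPM divided by the TPM of each other member in the same library, on a log axis, with 3 points per group; the gray line marks equal TPM. The colon points (blue) of each gene all lie above its bladder points (orange), and *Plvap* exceeded *Pecam1* in 5 of 6 colon libraries and in 0 of 6 bladder libraries.

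In colon, 0 of the 10 members passed the test between Y/T KO and Ctrl, where 0.137% of 17500 genes were called in either direction, and 0 had an unadjusted p under 0.05, as 9.73% of all genes did. Log2 differences (Y/T KO minus Ctrl) ran from −0.19 (*Tek*) to 0.36 (*Tie1*), 7 were positive, and the median was 0.081 against 0.0063 over all genes. The libraries of the 2 genotypes overlapped for all 10 members, whereas 16.1% of all genes did not overlap. The 95% intervals were widest for *Flt1*, *Vwf*, and *Emcn* and together ran from −0.76 (*Tek*) to 1.01 (*Vwf*), so that a difference near 2.0-fold in *Vwf* was within what 3 mice per genotype leave unresolved. Summed levels of other cell types differed between the genotypes in colon, although 0 genes of the lists named here passed the test (limma). The summed TPM of 8 pancreatic acinar genes was 10.3 to 154.9 in Ctrl colon and 3.18 to 5.39 in Y/T KO colon, that of 5 erythroid genes 37.1 to 54.1 and 83.5 to 139.1, and that of 10 smooth muscle genes 7600 to 8324 and 4974 to 5849. That of 8 colon epithelium genes was 4216 to 4989 and 2803 to 4103, and that of 4 adipocyte genes 6.96 to 34.9 and 8.32 to 8.72, with overlap. The colon epithelium genes did not move together. Of the 7 tested, 3 were higher and 4 lower in Y/T KO, from −1.33 for *Car1* upward, with *Epcam* at 0.045 ± 0.17 (log2, SE). The acinar genes *Cpa1*, *Cela2a*, *Cela3b*, and *Prss2* were at 0 TPM in every Y/T KO colon library. They reached the filter only through the Ctrl libraries where they were high, so acinar p-values are not counted here. Unadjusted p under 0.05 were found for 4 erythroid, 6 smooth muscle, 2 colon epithelium, and 2 adipocyte genes. The part of these cell types in the members' values was not tested.

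In bladder, 0 of the 10 members passed the test, where 0.302% of 18237 genes were called in either direction. Differences ran from −0.21 (*Plvap*) to 0.35 (*Erg*), 6 were positive, and the median was 0.13 against 0.002 over all genes. *Erg* had the only unadjusted p under 0.05, which 14.8% of all genes had (0.35 ± 0.13 SE, 1.28-fold, adjusted p = 0.284, limma), with all 3 Y/T KO libraries above all 3 Ctrl libraries. It was the 1 member of 10 for which this held in rescaled TPM, as it did for 10.6% of all genes. Coverage of *Erg*, not scaled to library depth, overlapped between the genotypes (9.69 to 10.5 in Ctrl bladder and 9.94 to 12.3 in Y/T KO bladder). *Pecam1* and *Tek* did not overlap between genotypes in deposited TPM, but did after rescaling (0.24 ± 0.10, adjusted p = 0.346, for *Pecam1*, and 0.33 ± 0.15, adjusted p = 0.372, for *Tek*). *Emcn* was 0.32 ± 0.16 (adjusted p = 0.404). The intervals of the 10 differences lay between −0.60 and 0.71. Summed smooth muscle TPM was 35480 to 46190 in Ctrl bladder and 17000 to 31130 in Y/T KO bladder, whereas the summed TPM of the 10 members was 301.0 to 330.7 and 314.8 to 358.9. Of the 10 smooth muscle genes, 0 passed the test in bladder and 6 had an unadjusted p under 0.05 (limma). By DESeq2 on counts, the paper reports *Acta2*, *Actg2*, and *Tagln* as lower in Y/T KO in both tissues. A gene not called here is therefore not shown to be unchanged. The part of the muscle transcripts in the members' values was not tested. The interaction of genotype and tissue was called for 0 of 10 members, with 0 at an unadjusted p under 0.05, and for 0.0607% of all genes, with 11.9% at an unadjusted p under 0.05.

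The same libraries held other genes of the endothelium. Of 26 further pan-endothelial genes, 25 were called higher in bladder and 0 lower, against 31.1% and 31.2% of all genes, with a median log2 difference of 1.08. *Sox17*, a transcription factor of arterial endothelium, was 0.396 to 0.996 TPM in colon and 3.12 to 5.81 in bladder (log2 1.99 ± 0.23), *Adgrf5*, an adhesion G-protein–coupled receptor, 5.25 to 12.9 and 32.9 to 39.1 (1.96 ± 0.18), and *Cldn5*, an endothelial tight junction claudin, 8.21 to 11.3 and 32.9 to 49.1 (1.71 ± 0.11). *Clec14a*, an endothelial lectin, was the gene not called, at 11.1 to 16.9 TPM in colon and 12.7 to 21.5 in bladder (0.067). Between genotypes, 0 of the 26 were called in either tissue (medians 0.071 in colon and −0.091 in bladder). An unadjusted p under 0.05 (limma) was found for 1 in colon and 2 in bladder, as for 9.73% and 14.8% of all genes. The 2 most abundant were *Cd34*, a sialomucin also found on fibroblast-like cells (99.6 to 132.4 TPM in Ctrl colon and 69.4 to 100.9 in Y/T KO colon, log2 −0.38 ± 0.17, adjusted p = 0.514), and *Egfl7*, a secreted endothelial factor. *Egfl7* was 26.6 to 31.3 TPM in Ctrl colon and 33.0 to 51.3 in Y/T KO colon without overlap (0.59 ± 0.20, adjusted p = 0.445). In rescaled TPM, 8.22% of all genes were higher in Y/T KO colon without overlap. In bladder *Egfl7* was 68.0 to 95.1 against 72.5 to 84.9 TPM (−0.083 ± 0.14).

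Of 11 ligands and co-receptors of the VEGF and angiopoietin receptors, 9 were called higher in bladder, against 31.1% of all genes, and 0 lower. *Angpt1*, the agonist of TIE2, was 1.01 to 2.37 TPM in colon and 5.90 to 8.65 in bladder (log2 1.95 ± 0.20). *Angpt2*, its context-dependent antagonist, was 2.73 to 5.23 and 11.97 to 21.9 TPM (1.64 ± 0.19), and *Vegfd* 3.00 to 5.58 and 11.0 to 20.1 TPM (1.58 ± 0.15). Between genotypes, 0 of the 11 were called (limma). An unadjusted p under 0.05 was found for 1 in colon and 3 in bladder, as for 9.73% and 14.8% of all genes. *Nrp2*, a co-receptor, was 79.9 to 96.5 TPM in Ctrl bladder and 50.6 to 60.9 in Y/T KO bladder with no overlap (−0.70 ± 0.10, adjusted p = 0.074). In rescaled TPM, 11.4% of all genes were lower in Y/T KO bladder without overlap. *Vegfa* was 53.4 to 72.6 and 43.1 to 55.7 TPM with overlap (−0.36 ± 0.13, adjusted p = 0.286). In colon the differences were −0.096 ± 0.28 for *Nrp2* and 0.18 ± 0.18 for *Vegfa*.

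Genes that mark classes of vessels were called in both directions, and their counts are to be read against the 31.1% of all genes called higher and 31.2% called lower in bladder. Of 9 arterial genes, 5 were called higher in bladder, led by *Sema3g* (log2 1.53 ± 0.12), and 2 lower, among them *Dll4*, a Notch ligand of arterial and sprouting endothelium (6.96 to 16.2 TPM in colon, 5.54 to 7.75 in bladder). Of 8 venous and activation genes, 7 were called higher and 1 lower. *Sele* encodes E-selectin, the leukocyte receptor of activated endothelium, and was 0 to 1.05 TPM in colon against 15.0 to 18.1 in every bladder library (log2 5.93 ± 0.36). *Vcam1* was 11.1 to 30.0 and 62.0 to 86.8 TPM (1.65 ± 0.15), and *Ephb4*, a receptor of venous endothelium, was the gene called lower (31.0 to 52.0 and 21.2 to 29.7 TPM, −1.01). Of 9 capillary and tip cell genes, 4 were called higher and 3 lower. *Fabp4*, a fatty acid-binding protein of capillaries and adipocytes, was 111.8 to 203.1 TPM in colon and 1434 to 2625 in bladder, whereas *Car4* (log2 −6.93 ± 0.31) and *Kcne3* (−6.54 ± 0.12), both also made by intestinal epithelium, were lower in bladder. Of 5 lymphatic genes tested, 2 were called higher, *Reln* (1.29 ± 0.28) and *Lyve1* (0.71 ± 0.22). *Prox1*, the lymphatic transcription factor, was 0.736 to 1.56 TPM in colon and 1.20 to 1.802 in bladder (0.23, not called). *Pdpn* was listed at 0 in all 12 libraries, which does not show that the tissues lack its transcript. Of 10 mural genes, 9 were called higher in bladder, with *Notch3* at 2.31 ± 0.15. Between genotypes, 0 genes of these 5 lists were called in either tissue (limma). Unadjusted p under 0.05 were found for 1 arterial, 1 venous and activation, 1 capillary and tip, 0 lymphatic, and 4 mural genes in colon, and for 1, 2, 1, 0, and 4 in bladder, where 9.73% of all genes in colon and 14.8% in bladder had one. The mural gene *Rgs5* was 82.4 to 95.1 TPM in Ctrl colon and 41.4 to 62.5 in Y/T KO colon (log2 −0.76 ± 0.17, adjusted p = 0.241, limma). It did not overlap, and in rescaled TPM 7.87% of all genes were lower in Y/T KO colon without overlap. In bladder *Rgs5* was 0.077 ± 0.11. *Mcam* was 0.26 ± 0.175 in colon and 0.28 ± 0.19 in bladder, and *Vcam1* 0.73 ± 0.25 and −0.14 ± 0.12. These lists were called by gene in the same fit over all genes, and their difference from the members was not tested.

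**Figure D4:**
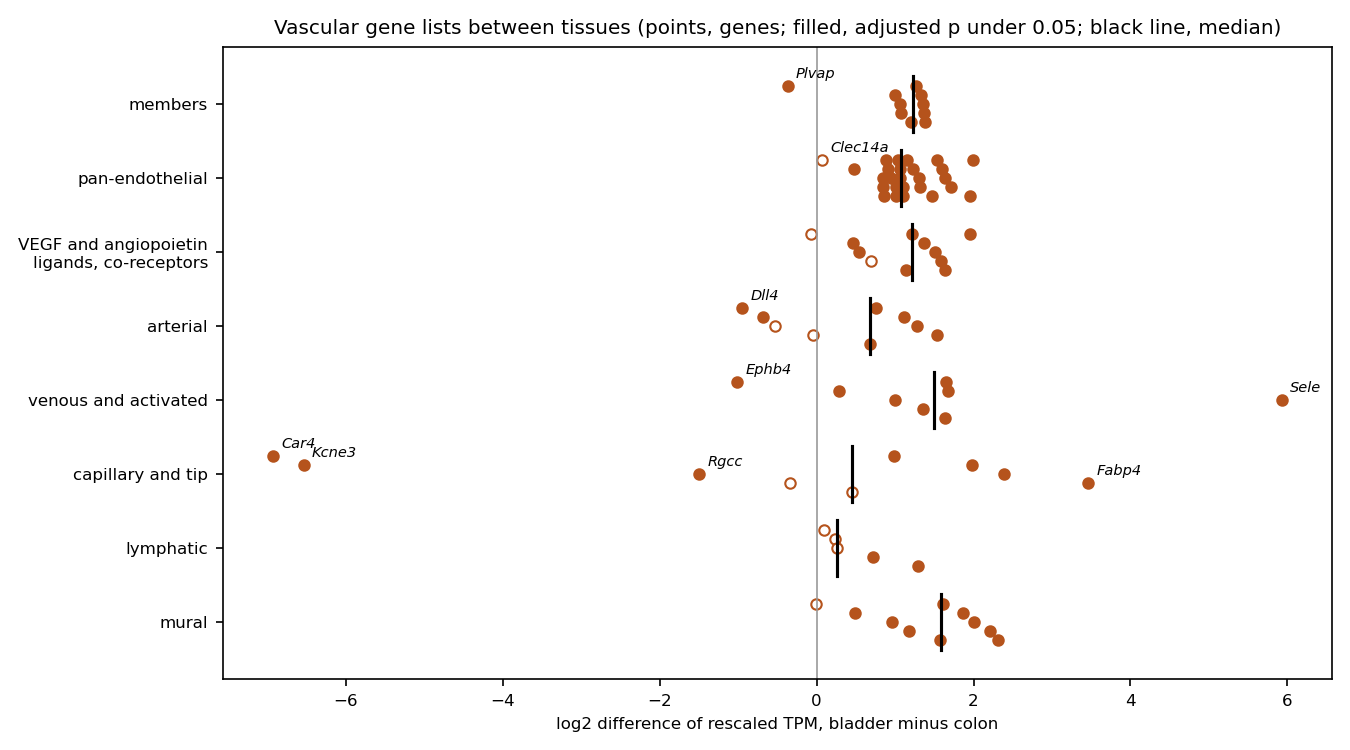
Log2 difference, bladder minus colon, of each tested gene in the members and 7 vascular gene lists (filled, adjusted p under 0.05; black line, median of the list). The members and the pan-endothelial list have medians of 1.23 and 1.08, while genes of the other lists reach from −6.93 (*Car4*) and −6.54 (*Kcne3*) to 5.93 (*Sele*); *Plvap* is the member below 0.

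*Vwf* and *Pecam1* are also made by platelets and their precursors, and *Tek*, *Kdr*, and *Erg* by some blood-forming cells. Of 7 platelet genes, only *Pf4*, *Ppbp*, and *Itga2b* were high enough to test, and the defining surface genes *Gp1ba*, *Gp5*, and *Gp9* were at or near 0. *Pf4*, which tissue macrophages also make, was 67.6 to 92.8 TPM in colon and 73.0 to 122.6 in bladder (log2 −0.026, not called), and *Itga2b* was 0.464 to 2.48 and 2.60 to 8.77 TPM (1.94 ± 0.31). Between genotypes *Pf4* was 0.083 ± 0.17 in colon and −0.46 ± 0.12 in bladder (adjusted p = 0.886 and 0.177, limma).

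**Figure D5:**
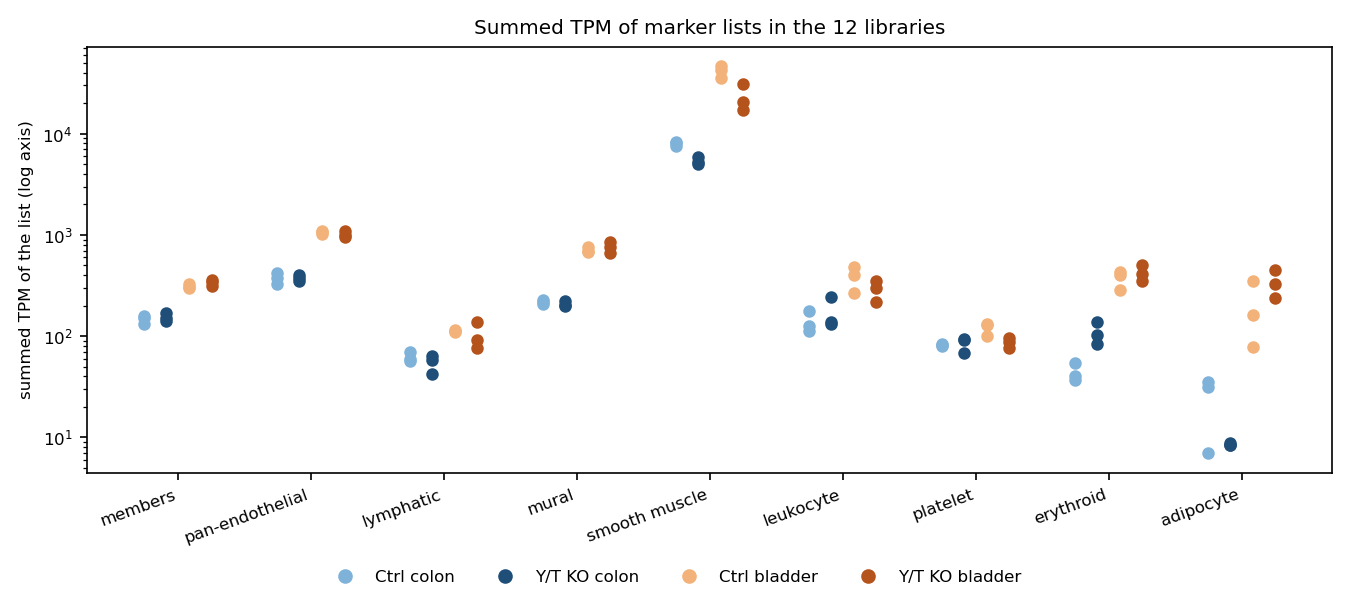
Summed TPM of the members and of 8 marker lists in each of the 12 libraries (log axis, 3 points per group). The members sum to 131.4 to 170.0 TPM in colon and 301.0 to 358.9 in bladder, and the smooth muscle sums of Y/T KO lie below those of Ctrl in both tissues.

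Single members varied among the mice of a group by a coefficient of variation of up to 58.8% (*Flt1*, Ctrl colon). Averaged over the members, deviations were of the size of the median genotype differences (0.081 in colon and 0.13 in bladder). The mean deviation of the 10 members from their group means ran from −0.15 (Ctrl colon, mouse 787) to 0.14 (Ctrl colon, mouse 786) on the log2 scale, and mouse 786 had the highest rescaled level within Ctrl colon for 8 of 10 members. Other libraries were mixed: Ctrl colon mouse 788 was highest for 2 members and lowest for 2, and Y/T KO bladder mouse 782 highest for 4 and lowest for 3. Over the 12 libraries, with group means removed and 16288 genes compared, the genes whose deviations were most like this mean were *Dync1li2* (Pearson's r = 0.965), *Hivep1* (0.960), *Pcdhgb2* (0.952), *Hira* (0.934), and *Bdp1* (0.906), followed by *Chst15*, *2900026A02Rik*, *Dpysl3*, *Zfand3*, and *Sh3pxd2a* (0.893 to 0.883). These are the largest of many correlations over few libraries, which share their scaling, and no likeness beyond these libraries can be read from them.

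Promoter sequences from RefSeq (GRCm38.p6) were found for 6 of the 10 members, in 8 windows, since *Erg* has 3 start sites there. ETS factors such as ERG bind sites with a GGAA core, and the 250 bases before each start were searched for GGAAG on both strands. The motif was present in 6 of the 8 windows, against 64.1% of 32851 windows of all genes. *Flt1*, *Kdr*, and *Tek* are shown as examples, with 3, 1, and 0 matches, and were picked after the matches were counted. *Tie1*, not shown, had 6 matches and was 2.40-fold higher in bladder. A window with 0 matches of GGAAG can still hold the shorter GGAA core, as that of *Tek* does on the reverse strand (ttcc). A relation of matches to levels was not tested. Capitals mark GGAAG or its reverse complement, and each sequence reads 5′ to 3′ along the gene's own strand up to the base before the start.
Flt1 (chr5:147726012-147726261, minus strand): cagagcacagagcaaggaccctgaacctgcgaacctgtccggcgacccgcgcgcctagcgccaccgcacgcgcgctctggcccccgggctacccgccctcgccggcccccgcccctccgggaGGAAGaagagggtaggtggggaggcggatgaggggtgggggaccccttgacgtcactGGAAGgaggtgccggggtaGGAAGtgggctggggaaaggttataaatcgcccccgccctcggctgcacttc
Kdr (chr5:75978456-75978705, minus strand): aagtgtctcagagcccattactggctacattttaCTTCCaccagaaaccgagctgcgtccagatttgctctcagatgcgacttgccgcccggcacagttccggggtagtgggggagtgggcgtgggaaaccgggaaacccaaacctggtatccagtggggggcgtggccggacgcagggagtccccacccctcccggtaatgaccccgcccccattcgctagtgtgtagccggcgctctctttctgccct
Tek (chr4:94739039-94739288, plus strand): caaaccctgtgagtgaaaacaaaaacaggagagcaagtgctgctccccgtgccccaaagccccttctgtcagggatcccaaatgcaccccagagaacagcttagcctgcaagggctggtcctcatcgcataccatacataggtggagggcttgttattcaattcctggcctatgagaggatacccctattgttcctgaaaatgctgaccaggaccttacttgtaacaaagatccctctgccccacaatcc
A match is a run of letters and not a measured binding site. The tissue difference of these 3 receptors was 2.51-fold, 2.11-fold, and 2.56-fold, in the order shown.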

How the data were processed

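Gene expression in 12 libraries of mouse colon and bladder, grouped by their labels, was measured by RNA sequencing. The members and gene lists were chosen with earlier results of these data known. The authors made stranded poly-A libraries and used bcl2fastq, FastQC, HISAT2, and StringTie on GRCm38, per the labels (versions not given in the sources used here). The TPM values were deposited by the authors and hold no read counts. The FPKM values, also deposited by the authors, served as an alternative. The deposited coverage is the mean depth over a gene's bases, and its ratio to FPKM gave the aligned bases per library. The study's DESeq2 test needs counts, so it was not repeated here. By it the paper reports more differing genes than were called here between genotypes (24 in colon and 55 in bladder). Those include smooth muscle genes that were not called here, so a gene not called is not shown to be unchanged.

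Rows of a gene ID were summed and TPM was scaled with size factors (median of ratios), set within a tissue for genotype comparisons (0.966 to 1.11) and over 12 libraries otherwise (0.878 to 0.990 in colon, 1.06 to 1.14 in bladder). Genes with 0.5 TPM or more in at least 3 libraries were tested on log2(TPM + 0.1), which understates changes of low genes, with limma 3.58.1 in R 4.3.3 (trend and robust options). A Benjamini-Hochberg adjusted p under 0.05 was a call. All tests were two-sided. Library totals bear on precision, but the counting error of a TPM value is unknown, so differences were judged by the spread between mice. The method was tested on simulated data, in which most changes of 1 log2 unit between genotypes were left uncalled. Gene coordinates were those of the files and match GENCODE M21. Named genes were the 10 members, *Yap1* and *Wwtr1*, and the 10 genes most alike. From each list, genes were drawn from up to 3 called genes of largest difference (or, with none called, the 2 of highest mean TPM). Not every gene that this rule gives is printed. Other named genes were chosen after their values were seen. Exact permutation tests used SciPy 1.17.1, and figures matplotlib 3.10.9. Alternatives were another pseudocount or filter, other scaling or unit, other limma options, mouse as a block, 1 fit over all libraries, and leaving out each library. Same-numbered mice did not deviate together (correlations −0.009, 0.067, and 0.044 over 19773 genes for mice 788, 783, and 780), but a shared number is the same animal, which pairs its tissues.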

Additional observations from a re-analysis of the deposited data

How the results depend on the processing

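The counts of members called (0 between genotypes in either tissue, 0 for the interaction, 9 higher in bladder) did not change under any alternative run, mouse as a replicate block included (consensus correlation 0.0514), which changed no call. The exception was TPM as deposited, under which 0 members were called higher in colon in place of 1 (*Plvap*) and the median tissue difference of the members was 1.496 in place of 1.23. Under the other 19 alternatives the *Plvap* difference was −0.45 to −0.32 (adjusted p 0.00254 to 0.0341). When single libraries were left out, the median difference ran from −0.0005 to 0.14 in colon between genotypes, 0.032 to 0.22 in bladder, and 1.13 to 1.30 between tissues, and 28 of 360 values of single members changed sign, none of them called. These ranges were, between genotypes in colon, −0.033 to 0.57 for *Flt1*, −0.074 to 0.20 for *Erg*, −0.18 to 0.063 for *Pecam1*, −0.12 to 0.018 for *Kdr*, −0.27 to 0.29 for *Emcn*, −0.0066 to 0.18 for *Cdh5*, and −0.34 to 0.0087 for *Tek*; in bladder, −0.16 to 0.037 for *Kdr* and −0.038 to 0.0007 for *Flt1*; and for the interaction, −0.046 to 0.57 for *Flt1*, −0.10 to 0.10 for *Kdr*, −0.12 to 0.48 for *Vwf*, and −0.19 to 0.061 for *Cdh5*. Values that kept their sign and were not called moved as well, between genotypes from 0.0045 to 0.62 for *Vwf* in colon, −0.30 to −0.062 for *Tie1*, 0.19 to 0.45 for *Emcn*, and 0.20 to 0.42 for *Tek* in bladder. Over all genes, calls between genotypes ran from 5 to 75 in colon and 11 to 67 in bladder over all settings, and from 8 to 31 for the interaction. With 3 mice per genotype, the spread between colon libraries limits what can be seen for *Flt1* and *Vwf*, whose intervals were widest.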
